A study of Mus musculus with 12 samples.

Results

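Genes that mark the excitatory neurons of the forebrain were measured in RNA from the dorsal raphe (DR) of 12 mice. They are Slc17a7, Tbr1, Nrgn, Camk2a, Ddn, Neurod6, Neurod2, Lamp5 and Emx1, 9 of the 24421 genes that the count files list. They were chosen by symbol, as known markers of forebrain glutamatergic neurons, with earlier results of these data known. All 9 passed the filter on low counts in every comparison of genotype over 12 or 11 libraries. The mice were 4 controls (Sert Cre/+; Stat3 fl/+, 2 females and 2 males) and 8 STAT3 KO mice (Sert Cre/+; Stat3 fl/fl, 4 females and 4 males), adult littermates of strain C57BL/6 x 129. All 12 mice thus carried the Sert-Cre allele and at least 1 floxed Stat3 allele. The recombinase is driven by the serotonin transporter gene, so the KO targets STAT3, a transcription factor of cytokine signalling, in cells expressing that transporter. The paper states that a full loss of STAT3 could not be shown for each serotonergic cell. Each library holds RNA of every cell in a square of tissue dissected below the aqueduct. A library is named here by its group and the number of its animal.

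The DR is a brainstem nucleus that holds most serotonergic neurons projecting to the forebrain. Excitatory neurons of the cortex and hippocampus fill synaptic vesicles with glutamate by VGLUT1, the product of Slc17a7, while most excitatory neurons of the brainstem use VGLUT2, the product of Slc17a6. The members fall into 3 roles. Emx1, Tbr1, Neurod2 and Neurod6 encode transcription factors of developing and mature pallial neurons. Nrgn (neurogranin), Camk2a (the alpha subunit of calcium/calmodulin-dependent kinase II) and Ddn (dendrin) encode proteins of dendrites and the postsynaptic side. Slc17a7 and Lamp5 encode membrane proteins of vesicles, and Lamp5 also marks a class of inhibitory cortical neurons.

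On the mouse assembly GRCm38 (GENCODE M21) the transcription factor genes lie at chr6:85187438-85204462 (Emx1, plus strand), chr2:61802930-61814114 (Tbr1, plus), chr11:98325415-98329648 (Neurod2, minus) and chr6:55677822-55681263 (Neurod6, minus). The postsynaptic genes Nrgn and Ddn lie at chr9:37544492-37552904 (minus) and chr15:98803777-98809490 (minus). Slc17a7 lies at chr7:45163949-45176142 and Lamp5 at chr2:136052239-136069917, both on the plus strand. Counts are of whole genes. An antisense gene overlaps Ddn, and since the strand setting of the counting is not given in the sources used here, reads of the pair cannot be told apart. Slc17a7 and Camk2a contain microRNA genes that the files list separately.

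The sequences before 3 of the genes are shown because Slc17a7 covaried with Neurod6 and with Neurod2 over 11 libraries, described below. They are the RefSeq promoter windows (GRCm38.p6, up to 250 bases before the start, cut where the GENCODE gene begins), written 5′ to 3′ on the strand of the gene, with capitals for the NeuroD E-box, searched as CAGATG or its reverse complement CATCTG.
Neurod2, chr11:98329649-98329895, minus strand: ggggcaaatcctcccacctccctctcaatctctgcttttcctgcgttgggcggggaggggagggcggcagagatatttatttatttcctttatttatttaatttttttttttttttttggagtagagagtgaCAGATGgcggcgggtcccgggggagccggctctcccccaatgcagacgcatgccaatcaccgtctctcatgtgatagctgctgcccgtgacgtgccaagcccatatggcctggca
Neurod6, chr6:55681264-55681513, minus strand: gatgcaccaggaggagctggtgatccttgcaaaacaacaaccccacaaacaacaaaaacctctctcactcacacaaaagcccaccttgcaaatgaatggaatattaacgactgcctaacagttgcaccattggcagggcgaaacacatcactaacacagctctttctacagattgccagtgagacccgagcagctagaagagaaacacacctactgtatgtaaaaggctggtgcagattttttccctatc
Slc17a7, chr7:45163671-45163920, plus strand: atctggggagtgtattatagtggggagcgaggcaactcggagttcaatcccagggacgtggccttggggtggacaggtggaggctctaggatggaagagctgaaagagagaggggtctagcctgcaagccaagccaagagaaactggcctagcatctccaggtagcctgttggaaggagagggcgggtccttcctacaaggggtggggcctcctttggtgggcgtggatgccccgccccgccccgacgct
The E-box begins at base 133 of the Neurod2 sequence, and the other 2 sequences do not contain these letters. RefSeq windows of 300 bases (250 before and 50 after the start) were found for 7 of the 9 members, 8 windows in all, and 3 of the 8 (of Neurod2, of Nrgn and the second of Lamp5) held the E-box, as did 17.2% of all 32851 windows. The T-box core GGTGTGA (or TCACACC), recognised by factors such as TBR1, was in 0 of the 8 and in 3.98% of all windows. A match is a description of letters, not of binding.

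Between 24379588 and 29645210 reads were counted on genes per library, 84.2% to 86.1% of the reads listed. Levels are given as counts scaled to a library total of 1000000 counts on genes (CPM), and at these depths 3 counts, the floor used, equal 0.101 to 0.123 CPM, which covers counting error only. No member was at or under 3 counts in any library. The serotonergic list (10 genes, among them Tph2, Slc6a4 and Fev) summed to 1499 to 2221 CPM, with control 4 at 2062 CPM, so the markers of the labelled tissue were present in every library. Stat3 did not differ over the whole gene (log2 fold change of KO over control -0.0077, SE 0.039), and counts of the whole gene do not resolve the deleted exons. Tph2 and Slc6a4, the synthesis enzyme and the transporter of serotonin, had log2 fold changes of 0.055 (SE 0.11) and -0.075 (SE 0.19). One library, control 4, stood apart for the genes described here, and the comparisons of the members below are given with and without it. The labels name no batch.

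Control 4, a male, had the highest level of 8 of the 9 members, and the summed level of the members in it was 953 CPM. The sum was 183, 241 and 246 CPM in controls 3, 11 and 13, and 223 to 341 CPM in the 8 KO libraries, with a median of 236 CPM. Control 4 was therefore 3.95-fold above the median of the other 11 libraries and 2.80-fold above the next library. Next in order came KO 15 (341 CPM), KO 16 (336 CPM) and KO 5 (294 CPM), 1 male and 2 females, while the other 8 libraries lay between 183 and 246 CPM, a range of 1.34-fold. In bulk tissue, more cells of a type and more RNA of a gene per cell cannot be told apart. Camk2a made up 49.3% to 64.7% of the summed CPM in each library, so the sum mostly follows that gene and single genes are given next.

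**Figure D1:**
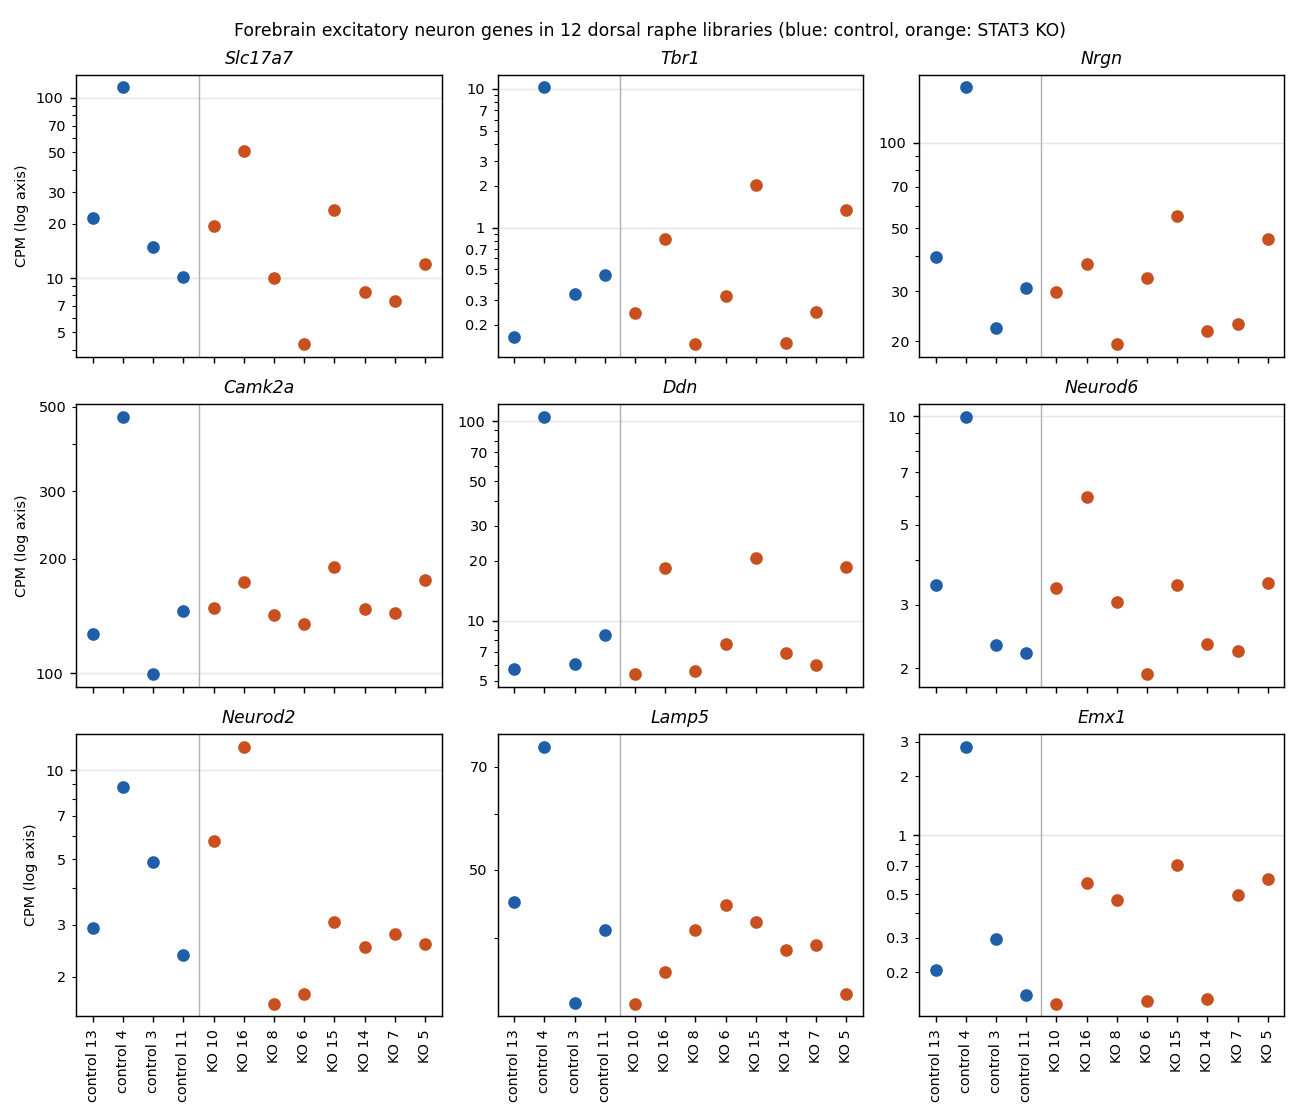
Level of each of the 9 members (CPM, log axis, a different range per panel) in each of the 12 libraries, with controls in blue and STAT3 KO in orange and 1 point per library. Control 4 is the highest point in 8 panels and KO 16 in the panel of Neurod2 (12 against 8.80 CPM in control 4).

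Of the transcription factors, Tbr1, which specifies deep-layer cortical neurons, was nearly silent in most libraries. It was at 0.164, 0.331 and 0.458 CPM in controls 13, 3 and 11 and at 10.3 CPM in control 4. In KO it ranged from 0.144 to 2.02 CPM with a median of 0.285 CPM, and the 3 highest were KO 15 (2.02 CPM), KO 5 (1.34 CPM) and KO 16 (0.822 CPM). Control 4 was 31.9-fold above the median of the others, and the 3 KO libraries were above every control except control 4.

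Emx1, a homeobox factor of the dorsal telencephalon, was the other gene close to the floor. It was at 0.205, 0.294 and 0.153 CPM in controls 13, 3 and 11, and at 2.84 CPM in control 4. In KO it ranged from 0.138 to 0.708 CPM with a median of 0.482 CPM, led by KO 15, KO 5 (0.599 CPM) and KO 16 (0.571 CPM). These 3 libraries again followed control 4, but 5 of the 8 KO libraries were above the other 3 controls, and the KO and control ranges overlapped.

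Neurod6, which persists in mature pyramidal neurons, was at 3.40, 2.32 and 2.21 CPM in controls 13, 3 and 11, and at 9.95 CPM in control 4. In KO it ranged from 1.93 to 5.96 CPM with a median of 3.21 CPM, and KO 16 was the highest. Neurod2, its relative, had another order. It was at 2.91, 8.80, 4.89 and 2.36 CPM in controls 13, 4, 3 and 11 and ranged from 1.62 to 12 CPM in KO, with a median of 2.68 CPM. The highest libraries were KO 16 (12 CPM), control 4, KO 10 (5.77 CPM) and control 3, so Neurod2 was the single member for which control 4 was not the highest.

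Of the postsynaptic genes, Ddn showed the widest gap, with control 4 at 5.09-fold of the next library, the largest such ratio of any member (5.07-fold for Tbr1). It was at 5.74, 6.11 and 8.47 CPM in controls 13, 3 and 11, and at 105 CPM in control 4. The other 5 KO libraries lay between 5.42 and 7.64 CPM, close to these 3 controls, and KO 16, KO 5 and KO 15 stood at 18.4, 18.6 and 20.6 CPM. The 12 libraries thus fell into 3 levels for Ddn, with no library between 8.47 and 18.4 CPM or between 20.6 and 105 CPM.

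Nrgn, a calmodulin-binding protein of dendritic spines, was at 39.7, 22.3 and 30.7 CPM in controls 13, 3 and 11, and at 157 CPM in control 4. In KO it ranged from 19.5 to 55.3 CPM with a median of 31.6 CPM, and KO 15 (55.3 CPM) and KO 5 (45.9 CPM) were the highest. Camk2a, the kinase subunit of the postsynaptic density (chr18:60925618-60988152, plus strand), was at 127, 99.6 and 145 CPM in controls 13, 3 and 11, and at 470 CPM in control 4. In KO it ranged from 134 to 189 CPM with a median of 148 CPM, so that leaving control 4 aside 5 of 8 KO libraries were above all controls.

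Slc17a7 was at 21.5, 14.9 and 10.2 CPM in controls 13, 3 and 11, and at 114 CPM in control 4. In KO it ranged from 4.29 to 50.9 CPM with a median of 10.9 CPM, and KO 16 (50.9 CPM) stood far above KO 15 (23.9 CPM) and KO 10 (19.5 CPM). Among the 8 libraries outside the 4 with the highest sums it still varied 5.02-fold, the most of any member. Lamp5 varied least. It was at 45.0, 32.3 and 41.0 CPM in controls 13, 3 and 11, at 74.8 CPM in control 4, and at 32.2 to 44.5 CPM in KO (median 38.7 CPM), and KO 15, KO 16 and KO 5 were not raised as a group (42.1, 35.7 and 33.3 CPM).

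Divided by exon length, which allows levels of different genes to be compared, the order in the 8 libraries outside the 4 highest was Camk2a (median 19.2 CPM per kb), Nrgn (18.2), Lamp5 (13.6), Slc17a7 (1.87), Ddn (1.60), Neurod6 (1.08), Neurod2 (0.847), Emx1 (0.0819) and Tbr1 (0.0446). In control 4 the order was Nrgn (107.8 CPM per kb), Camk2a (63.0), Ddn (27.8), Lamp5 (25.5), Slc17a7 (21.2), Neurod6 (4.63), Neurod2 (2.80), Tbr1 (1.87) and Emx1 (1.30). Ddn thus moved from the fifth place to the third, and Nrgn passed Camk2a.

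The libraries KO 15 and KO 5 held the excess of control 4 on a smaller scale for part of the genes. Taking the median of the other 8 libraries as the base, the excess of KO 15 was 17.7% of that of control 4 for Tbr1, 19.9% for Emx1, 14.7% for Ddn, 22.2% for Nrgn, 14.2% for Camk2a, 13.3% for Slc17a7 and 14.1% for Neurod6, but 6.66% for Neurod2 and 6.16% for Lamp5. For KO 5 it was 10.9% for Tbr1, 15.8% for Emx1, 12.7% for Ddn, 15.0% for Nrgn, 10.1% for Camk2a and 14.7% for Neurod6, against 1.75% for Slc17a7, -1.44% for Neurod2 and -19.2% for Lamp5. KO 16 differed in kind. Its excess was 5.75% for Tbr1, 14.8% for Emx1, 12.5% for Ddn, 8.46% for Nrgn and 9.38% for Camk2a, but 39.1% for Slc17a7, 47.7% for Neurod6 and 152% for Neurod2. These shares describe the libraries that the members themselves put on top, and no test was made of them.

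**Figure D2:**
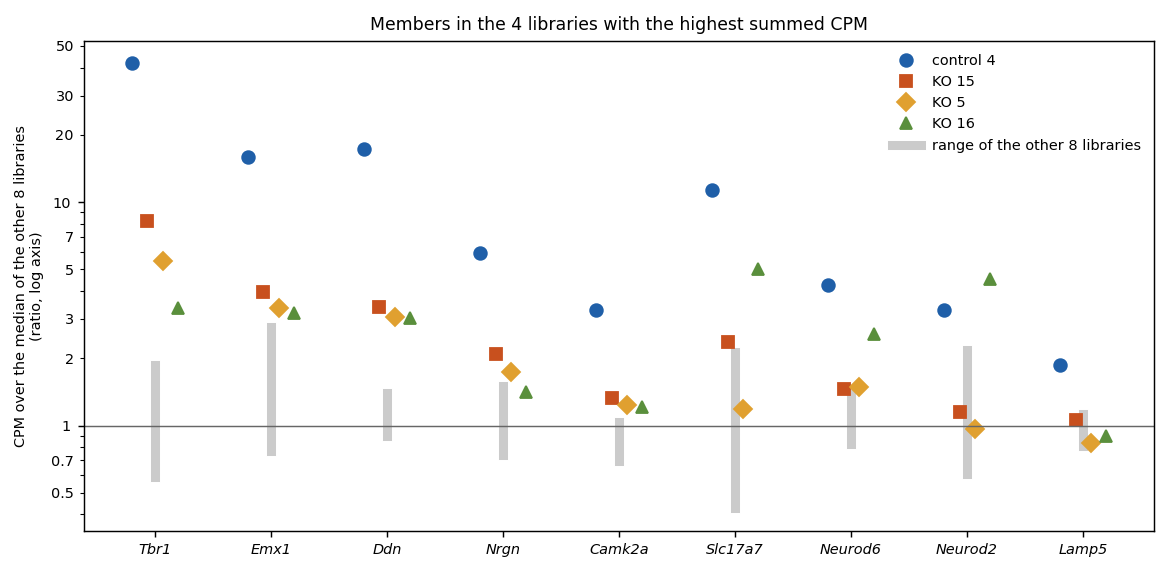
CPM of each member in the 4 libraries with the highest sums, divided by the median of the other 8 libraries (log axis), with the range of those 8 as a grey bar. For Tbr1, Emx1, Ddn, Nrgn and Camk2a the order is control 4, KO 15, KO 5, KO 16, while KO 16 is second for Slc17a7 and Neurod6 and first for Neurod2.

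Whether the members covaried once control 4 was set aside was asked over 11 libraries, for all 36 pairs (log2 CPM with a prior count of 2, permutation tests with 100000 resamples, Benjamini-Hochberg over the pairs). The median of Pearson's r was 0.42, with a range from -0.59 to 0.94, and 30 of 36 pairs were positive. All 6 negative pairs held Lamp5. At an adjusted p below 0.05 there were 6 pairs by Pearson and 2 by Spearman. By this threshold those 6 fell into 2 blocks with no passing pair between them (highest r = 0.55, Ddn with Neurod6), and no difference between r values was tested. The first joined Tbr1 with Ddn (r = 0.94, adjusted permutation p = 0.00396), Tbr1 with Nrgn (r = 0.79, 0.0261), Nrgn with Ddn (r = 0.76, 0.0441) and Camk2a with Ddn (r = 0.76, 0.0261). Within it Tbr1 with Camk2a (r = 0.66, adjusted permutation p = 0.117) and Nrgn with Camk2a (r = 0.59, 0.163) did not pass. The second joined Slc17a7 with Neurod6 (r = 0.89, adjusted permutation p = 0.00684) and with Neurod2 (r = 0.81, 0.0261), while Neurod6 with Neurod2 did not pass (r = 0.68, 0.117) and had an r of 0.058 without the 2 farthest libraries. By Spearman, Tbr1 with Ddn (coefficient 0.85) and Slc17a7 with Neurod6 (coefficient 0.87) passed, both with an adjusted permutation p of 0.0288. The Spearman coefficient was 0.73 for Tbr1 with Nrgn, 0.65 for Nrgn with Ddn, 0.69 for Camk2a with Ddn and 0.78 for Slc17a7 with Neurod2.

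Without the 2 libraries farthest from the median of the first gene, r was 0.85 for Tbr1 with Ddn and 0.86 for Camk2a with Ddn, 0.70 for Slc17a7 with Neurod6, 0.61 for Nrgn with Ddn, 0.53 for Slc17a7 with Neurod2 and 0.48 for Tbr1 with Nrgn, so the last 2 rested in part on those libraries. The libraries KO 15, KO 5 and KO 16 form a level of their own for Tbr1 and Ddn. No r within levels is reported here, since the levels hold fewer libraries than a correlation needs or are defined by the same values. Whether these pairs also covaried within a level is thus not shown. Across all 12 libraries the median r was 0.76 and 24 pairs passed, a description that control 4 carries.

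**Figure D3:**
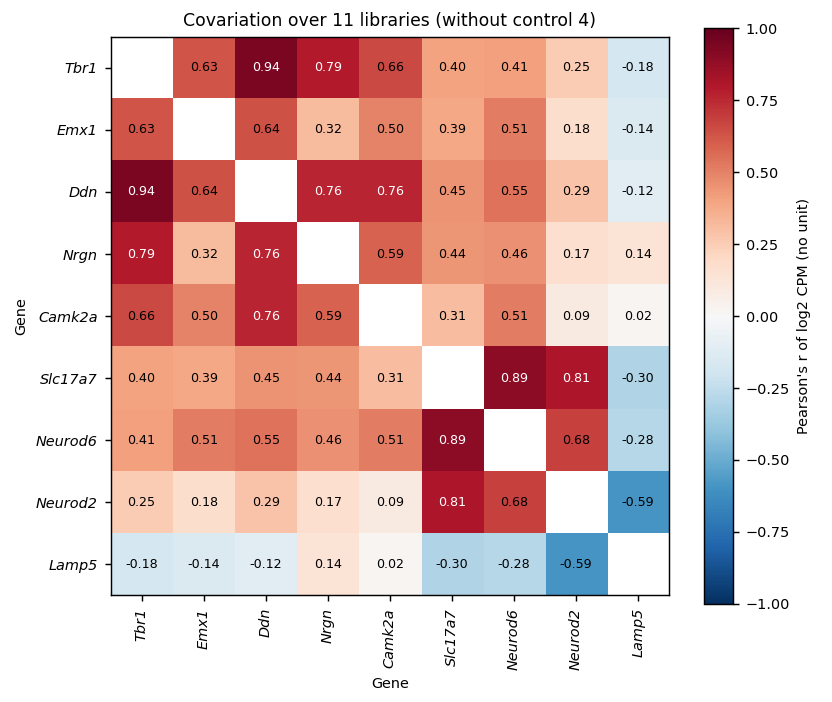
Pearson's r of log2 CPM between each pair of members over the 11 libraries without control 4, printed in each cell and coloured from blue (-1) to red (1). The highest values are in the block of Tbr1, Ddn, Nrgn and Camk2a and in that of Slc17a7, Neurod6 and Neurod2, and 6 of the 8 values of Lamp5 are negative.

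Genes outside the members are given beside them by library, and no correlation of either block with them was computed. In control 4, 4 of 18 further genes of cortical projection neurons were at 2-fold or more of the median of the others and above the floor. Mef2c, a factor of maturing neurons, was at 101.5 CPM in control 4, at 24.2, 23.7 and 21.3 CPM in KO 15, KO 5 and KO 16, and at 11.4 to 17.0 CPM elsewhere. It thus kept the 3 levels of Ddn. Fezf2, a factor of deep-layer cortical neurons, was at 1.94 CPM in control 4, at 0.607, 0.317 and 0.214 CPM in KO 15, KO 5 and KO 16, and at 0 to 0.153 CPM in the other 8 libraries.

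Of 18 genes of forebrain synapses, 16 were highest in control 4 and 7 were at 2-fold or more, led by Egr3 (25.4 CPM, 10.2-fold of the median of the others) and Kcnj4 (11.3 CPM, 8.19-fold). Of 10 genes of forebrain interneurons 6 were, among them Dlx1 (1.47 CPM in control 4 and 0.0345 to 0.573 CPM elsewhere), so that markers of inhibitory forebrain neurons were high in the same library. None of 16 hippocampal, 10 striatal, 10 serotonergic or 12 cerebellar genes was, nor any astrocyte, oligodendrocyte, microglia or vascular gene, while Hoxa2 and Hoxb2 of the 12 genes of brainstem identity were, at 0.323 and 0.180 CPM (9 and 5 counts), with higher levels in control 13 (0.410 and 0.615 CPM). Over the 15266 genes whose mean count was 10 or higher, 86 (0.563%) were at 2-fold or more in control 4, and in the other libraries this number ran from 22 to 115, so control 4 was not the library with the most such genes. The counts in the lists had no such limit on the mean count. Dlx2, Dlx5 and Dlx6 of the interneuron list, for example, had at most 8 counts in any library. The shares of the lists are therefore not like for like with the 0.563%. It was the highest library for 919 genes (6.02%). Whether tissue other than the DR entered control 4, KO 15, KO 5 or KO 16 was not tested.

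Genes of cerebellar granule cells were highest in KO 16, the library in which Neurod2 was highest too. Gabra6, a GABA receptor subunit of these cells, was at 66.6 CPM in KO 16, 16.6 CPM in control 3 and 11.2 CPM in KO 10, and at 0.0675 to 0.953 CPM in the other 9 libraries. Cbln3 was at 96.4, 37.8 and 25.0 CPM in the same 3 libraries and at most at 2.99 CPM elsewhere, and Fat2 at 54.8, 18.6 and 17.9 CPM and at most at 1.66 CPM. Neurod1, a factor shared by granule cells of cerebellum and hippocampus, was at 46.6, 16.4 and 14.2 CPM, and at 3.77 to 6.10 CPM elsewhere. The 12 genes of the cerebellar list summed to 853 CPM in KO 16, 448 CPM in KO 10, 323 CPM in control 3 and 151 to 253 CPM in the others, with control 4 at 154 CPM. Neurod2 was high in these 3 libraries and in control 4. Slc17a7 was at 50.9, 19.5 and 14.9 CPM in KO 16, KO 10 and control 3 and Neurod6 at 5.96, 3.35 and 2.32 CPM, against medians of 10.1 and 2.33 CPM in the 8 libraries outside the 4 with the highest sums. Both were highest in control 4, where Gabra6 was at 0.144 CPM, and Tbr1 in KO 10 (0.242 CPM) and control 3 (0.331 CPM) was within the range of the low libraries. Slc17a7 and Neurod2 are also expressed by granule cells of the cerebellum, and the part of such cells in their levels was not tested.

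**Figure D4:**
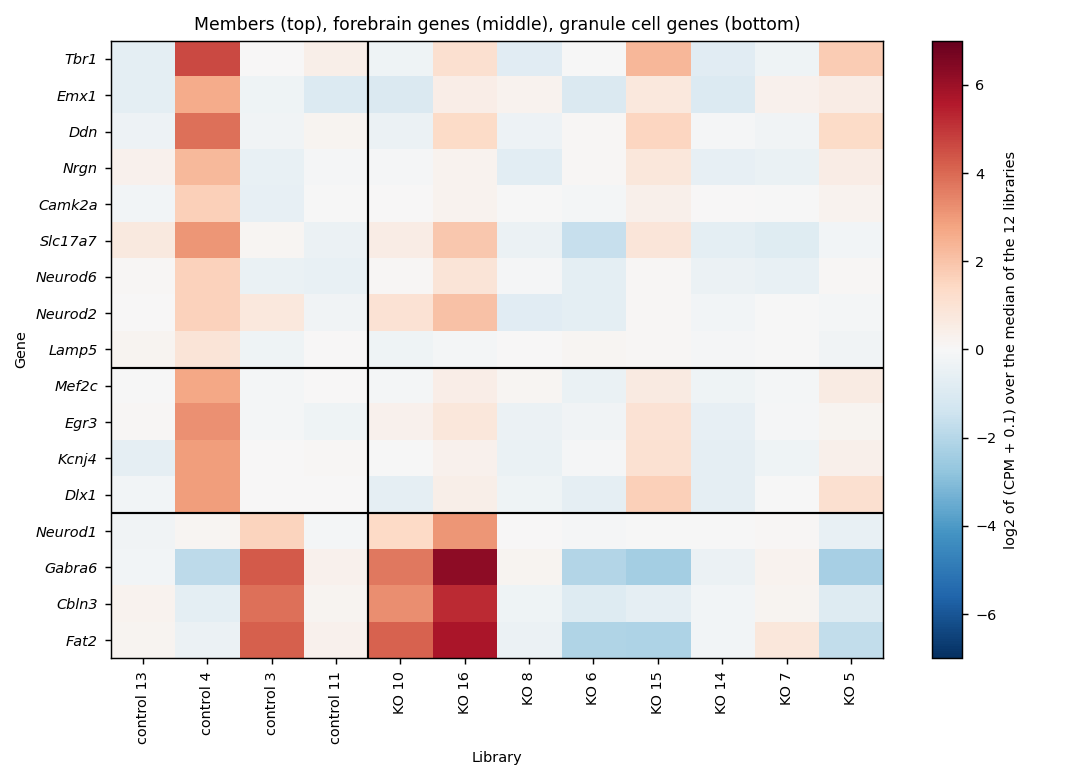
Levels of the 9 members (top), 4 other forebrain genes (middle) and 4 granule cell genes (bottom) in each library, as the log2 of CPM plus 0.1 over the median of the 12 libraries (blue to red, -7 to 7). The column of control 4 is red for members and forebrain genes and not for granule cell genes, and KO 16, KO 10 and control 3 are red for granule cell genes.

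The genes most like the members were named by the correlation with the mean of their standardised log2 CPM, over all genes that passed the filter. Over 12 libraries these were Ankrd33b (r = 0.99), Egr3 (0.98), Ptk2b (0.97), Mef2c (0.97), Dcaf6 (0.96) and Arpp21 (0.95), and over 11 libraries Ptk2b (0.95), Ankrd33b (0.95), Kcnh3 (0.93), Gm4925 (0.93), Egr3 (0.90) and Rgs14 (0.88). Their sizes differed. Kcnh3 was at 17.0 CPM in control 4 and at a median of 0.738 CPM in the others, while Dcaf6 was at 55.4 CPM against 46.5 CPM, 1.19-fold. Gm4925 followed KO 15, KO 16 and KO 5 (0.945, 0.893 and 0.811 CPM, and 0.468 to 0.622 CPM elsewhere) and was at 0.539 CPM in control 4, so its r over 12 libraries was 0.33. Libraries shared by all these values make the r a description.

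The comparison of genotypes, which asks how DR expression differs when STAT3 is targeted in serotonergic cells, gave 0 members past the threshold. Over all 12 libraries every member had a lower estimate in KO, and without control 4 the estimate was higher in KO for 8 of 9, the exception being Lamp5. The median log2 fold change of the 9 members was -0.93 with control 4 and 0.27 without it, against -0.0011 and 0.0053 over all genes tested. Since control 4 was set aside for its level of these same genes, the second value shows how far 1 library carries the first, and it is no independent test.

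Tbr1 was at 2.81 ± 4.98 CPM in controls (mean ± SD, n = 4) and 0.661 ± 0.690 CPM in KO (n = 8), and its log2 fold change was -2.11 (SE 0.87), with an adjusted p of 0.619 by edgeR's quasi-likelihood test. Without control 4 the control mean was 0.318 ± 0.147 CPM (n = 3) and the log2 fold change 1.03 (SE 0.82, adjusted p = 0.773). Ddn was at 31.4 ± 49.2 CPM in controls and 11.2 ± 6.75 CPM in KO, with -1.52 (SE 0.66, adjusted p = 0.638), and 6.77 ± 1.48 CPM in the other 3 controls, with 0.70 (SE 0.44, adjusted p = 0.692). In both genes the SD of the controls exceeded their mean, and removing 1 library turned the sign.

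Slc17a7 was at 40.3 ± 49.6 CPM in controls and 17.0 ± 15.1 CPM in KO, and its log2 fold change was -1.27 (SE 0.62, adjusted p = 0.658) with control 4 and 0.11 (SE 0.56, adjusted p = 0.978) without it. For Emx1 it was -1.13 (SE 0.66, adjusted p = 0.746) and 0.88 (SE 0.56, adjusted p = 0.698), and for Nrgn -0.93 (SE 0.41, adjusted p = 0.645) and 0.09 (SE 0.28, adjusted p = 0.965). Neurod6 had -0.50 (SE 0.37, adjusted p = 0.815) and 0.27 (SE 0.28, adjusted p = 0.850), and Neurod2 -0.27 (SE 0.49, adjusted p = 0.948) and 0.22 (SE 0.53, adjusted p = 0.953). None of these differences passed the threshold. For Slc17a7 and Neurod2 the sign without control 4 also depended on the scale, since the difference of mean log2 CPM was -0.22 and -0.03, and on KO 16, without which the log2 fold changes were -0.36 and -0.26. For Slc17a7 it was -0.12 without control 11. That of Nrgn was -0.10 without control 3 and -0.06 without KO 15.

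Camk2a and Lamp5 varied least among the other libraries. Camk2a was at 124 ± 23.1 CPM in the 3 other controls and 157 ± 19.9 CPM in KO, and its log2 fold change was -0.45 (SE 0.30, adjusted p = 0.780) with control 4 and 0.32 (SE 0.11, adjusted p = 0.413) without it. The latter had an unadjusted p of 0.0140 in edgeR and a two-sided exact permutation p of 0.0303 over 165 splits, and 8.68% of all genes tested had a permutation p below 0.05. Without the 4 libraries with the highest sums, a choice made after seeing the data, it was 0.19 (adjusted p = 0.709), and the other 6 members tested had negative estimates (Slc17a7 -0.66, Nrgn -0.29, Neurod2 -0.25, Ddn -0.12, Neurod6 -0.05 and Lamp5 -0.03), so those of 5 members turned again from the fit without control 4. Lamp5 had -0.36 (SE 0.16, adjusted p = 0.646) and -0.06 (SE 0.11, adjusted p = 0.922).

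**Figure D5:**
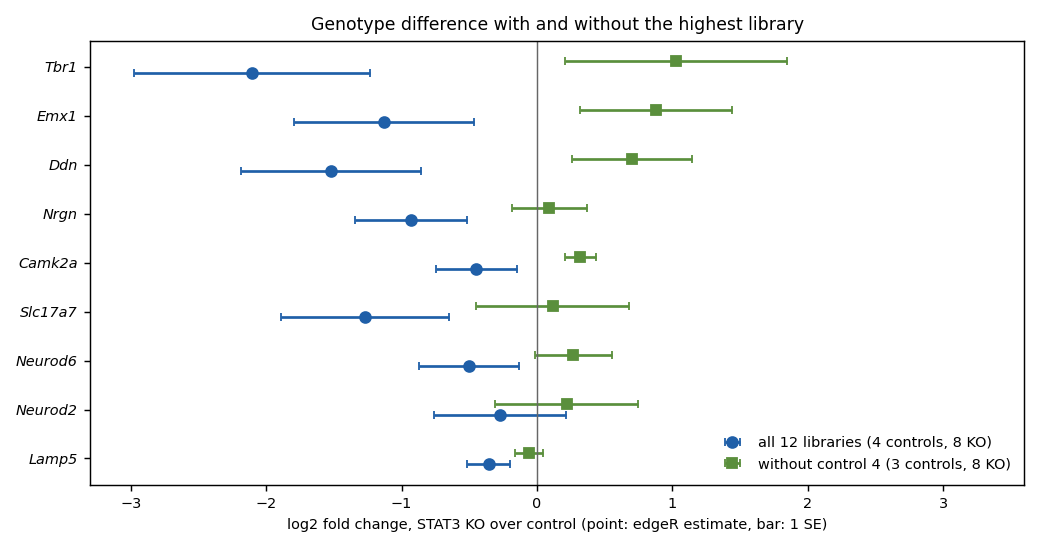
Log2 fold change of STAT3 KO over control for each member from edgeR, with bars of 1 SE, over all 12 libraries (blue circles) and without control 4 (green squares). The 9 blue points lie between -2.11 and -0.27, and the green points between -0.06 and 1.03.

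At an adjusted p below 0.05 edgeR called 0% of the 15453 genes tested over 12 libraries (1184 genes at an unadjusted p below 0.05, DESeq2 6 calls) and 0.00643% of the 15545 genes without control 4, 1 gene (1393 at an unadjusted p below 0.05, DESeq2 141 calls). At an unadjusted p below 0.05, 4 of 9 members (Tbr1, Nrgn, Ddn and Lamp5, all lower in KO) stood against 7.66% of all genes with control 4, and 1 of 9 (Camk2a, higher in KO) against 8.96% without it. The exact permutation test, which weighs control 4 as 1 of 4 controls, gave p values from 0.152 (Lamp5) to 0.739 (Camk2a) over 495 splits with all 12 libraries, and its smallest p is 0.00202. Without control 4 it gave 0.0303 for Camk2a and 0.248 to 0.976 for the other 8 members. Groups overlapped for all 9 members in both sets, while 0.447% of all genes did not overlap over 12 libraries and 2.84% without control 4.

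The same comparison in the marker lists gave 0 genes past the threshold over 12 libraries in each of the 15 lists. Among 17 cortical projection genes tested the median log2 fold change was -0.12 with control 4 and 0.06 without it, and Mef2c had one of the largest estimates (-1.12 with control 4 and 0.16 without it). Among 18 forebrain synapse genes the medians were -0.29 and 0.02, with Egr3 (-1.42 and 0.33) and Kcnj4 (-1.34 and 0.25) the largest. The forebrain interneuron list, of which 5 of 10 genes passed the filter, was led by Lhx6 (-1.11 and -0.19). In the hippocampal list C1ql2 (-0.82 and -1.12) and Tdo2 (0.58 and 0.64) were the largest, and in the striatal list Drd2 had -0.16 and -0.22.

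Outside the forebrain lists, the leading estimates over 12 libraries were Slc22a3 (0.10) and Slc6a4 (-0.075) of the serotonergic list, Lmx1a (-0.45) and Pax5 (0.42) of brainstem identity, Slc6a3 (-0.91) and Foxa1 (-0.42) of the dopaminergic list, and Pcp2 (3.01) and Ppp1r17 (1.75) of the cerebellar list. Ttr (5.01) and Folr1 (1.22) led the choroid plexus and ependymal list, Slc1a3 (0.28) and Gfap (0.19) the astrocyte list, Mag (-0.13) the oligodendrocyte list, Aif1 (0.089) and Tmem119 (-0.088) the microglia list, and Rgs5 (-0.20) and Flt1 (-0.047) the vascular list. None of these passed. Ttr was at 204 and 213 CPM in KO 16 and KO 8 and at most at 3.64 CPM in the other libraries. Of the 2 vesicular glutamate transporters in the brainstem list, Slc17a8 had 0.019, and Slc17a6 had -0.29 over 12 libraries and -0.42 (SE 0.057, adjusted p = 0.0424 by edgeR) without control 4, the 1 gene called there. Its call was lost in 7 of 11 fits that left out a further library (control 3, control 11, KO 10, KO 16, KO 6, KO 14 or KO 5), with adjusted p from 0.0300 to 0.352 over the 11 fits and log2 fold changes from -0.47 to -0.39. Slc17a6 was at 355, 391 and 398 CPM in controls 13, 3 and 11, at 264 to 308 CPM in KO and at 242 CPM in control 4, so the library with the highest Slc17a7 had the lowest Slc17a6.

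In the model with genotype and sex, 0 members passed for sex over 12 libraries (0.0841% of all genes did) and 1 of 9, Lamp5, had an unadjusted p below 0.05 against 7.20% of all genes, with a log2 fold change of males over females of 0.37 (adjusted p = 0.601). Without control 4, Lamp5 (0.21, SE 0.082) and Neurod2 (-1.21, SE 0.38, unadjusted p = 0.00657, adjusted p = 0.705) were below 0.05 against 6.59% of all genes. Neither passed the threshold (adjusted p = 0.725 for Lamp5 in edgeR). The 3 libraries with high granule cell genes, KO 16, KO 10 and control 3, were all from females.

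The interaction of genotype and sex gave 0 members past the threshold (0% of all genes), with 8 of 9 at an unadjusted p below 0.05 against 5.49% of all genes. All 9 estimates were negative, from -4.36 (SE 1.76) for Tbr1 and -3.49 for Ddn to -0.33 for Lamp5, with adjusted p of 0.898 or more in edgeR. Control 4 was 1 of only 2 male controls. Without it 0 of 9 members were below 0.05, against 4.37% of all genes, and the estimate was -0.82 (SE 1.82) for Tbr1, -0.75 (SE 0.93) for Ddn and -0.42 (SE 0.22) for Camk2a. The fit without control 4 rests on 1 male control.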

How the data were processed

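Sequencing libraries, 1 per mouse, were made from DR tissue of 12 mice, 4 controls and 8 STAT3 KO. Per the labels and methods, the authors made libraries with the NEBNext Ultra II kit and aligned reads to mm10 with STAR 2.5.0b. The deposited files hold raw counts per gene symbol, and the counting tool, annotation and strand setting are not given in the sources used here. The final 2 rows of each file, for reads of no single gene (13.9% to 15.8%), were left out. Genotype and sex came from the labels and the animal number from the titles. Over 66 pairs of libraries, chi-square per gene was 5.24 to 29.1 over 13400 genes, so no library copied another. P values measure the spread between these animals.

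The members and the 15 lists were chosen with earlier results of these data known. The main test was edgeR 4.0.16's two-sided quasi-likelihood test (R 4.3.3, TMM, filterByExpr by genotype, Benjamini-Hochberg over all genes, threshold 0.05), run with and without the library with the highest summed CPM of the members, and likewise for sex and its interaction with genotype. Members were also compared by a two-sided exact permutation test of mean log2 CPM (prior count 2, 495 or 165 splits). CPM used the counts on genes as library size. Named genes were the 9 members, of each list the 2 genes with the largest fold change and any that passed, the 6 genes most like the members over 12 and over 11 libraries, and Stat3, Tph2 and Slc6a4. Some genes that this rule names are not reported here. Other genes (Fezf2, Dlx1, Hoxa2, Hoxb2, Gabra6, Cbln3, Fat2 and Neurod1) were named after their values were seen. Alternatives were DESeq2 1.42.0, limma-voom (limma 3.58.1), RLE, other filters, sex as a covariate, a prior count of 0.5 and each library left out. On simulated data edgeR recovered 89.9% of genes with a log2 fold change of 1 over 12 libraries (15376 genes) and 93.9% without the highest (15414 genes). False calls were 7 of 194 and 9 of 200. The simulated counts held no library that stood apart as control 4 does, so these shares are not the power for the members. Promoter windows are RefSeq's, and Python 3.11.15 was used for tables and figures.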

Additional observations from a re-analysis of the deposited data

Results flagged for a closer look

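In the controls, Ddn in control 4 (105 CPM) lay far from controls 13, 3 and 11 (5.74 to 8.47 CPM). Its gap to the nearest control was 0.866 of the range of the 4 controls on the log2 scale, above Dixon's critical value for 4 samples. Both genotype groups were examined for each of the 9 members and for their sum, 20 in all, and chance gives about 1 such value in 20, so 1 is the number that chance alone would give. The cause was not tested.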

How the results depend on the processing

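No member passed the threshold in any alternative that tested it. DESeq2 gave no adjusted p for Tbr1 and Camk2a over 12 libraries and for Emx1 over 11, and Tbr1 and Emx1 were not tested with at least 10 counts required in every library. The number of genes called over 12 libraries was 0 in edgeR and 6 with DESeq2, and 0 to 1 when each library was left out, the 1 being without control 4. Without control 4 it was 1 in edgeR, 141 with DESeq2 and 2 with sex as a covariate, and 0 to 35 when a further library was left out, with 35 without KO 8, 11 without KO 15 and 5 without KO 7. Over 12 libraries the estimate of 8 members turned from negative to positive only without control 4 (Tbr1 from -2.62 at the lowest to 1.03, Ddn from -1.86 to 0.70), or, for Camk2a, also without the 4 highest libraries (0.19), while Lamp5 stayed negative, between -0.50 and -0.06 when each library was left out and at -0.03 without the 4 highest. Without control 4, leaving out a further library moved Slc17a7 between -0.36 (without KO 16) and 0.41, Neurod2 between -0.26 (without KO 16) and 0.59, Nrgn between -0.10 and 0.31 and Lamp5 between -0.18 and 0.04 (without control 13), while Tbr1 (0.51 to 1.37), Ddn (0.51 to 0.89), Emx1 (0.67 to 1.17), Camk2a (0.19 to 0.45) and Neurod6 (0.08 to 0.48) stayed positive. Of the 36 pairs, 6 passed without control 4, 6 with a prior count of 0.5 and 24 with all 12 libraries. With TMM library sizes the sum in control 4 was 3.98-fold above the others. Without the 4 highest libraries, an alternative added after seeing the data, Tbr1 and Emx1 did not pass the filter, the other 7 members ran from -0.66 (Slc17a7) to 0.19 (Camk2a), and edgeR called 0 of 15408 genes (1131 at an unadjusted p below 0.05, smallest adjusted p 0.118). The causes were not tested. With at most 4 controls, Tbr1 and Emx1, at a few counts per library in most animals, had SEs of 0.56 to 0.87. Members with more counts also had wide SEs. With and without control 4 these were 0.62 and 0.56 for Slc17a7 (120 to 3186 counts), 0.66 and 0.44 for Ddn, and 0.49 and 0.53 for Neurod2. For all these members only large differences could pass, and the source of the SEs was not tested. The labels give no litter, so no paired analysis was made, and any likeness between littermates entered no test.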
